A study of Mus musculus with 8 samples.

Results

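The Bcl2 family of survival and death genes was described in OT-I CD8+ T cells in which *Elovl1* had been targeted. The 10 members were taken by name from the 56805 genes of the count table, with no threshold on their values but with earlier results of these data known: the survival genes *Bcl2*, *Bcl2l1*, *Mcl1* and *Bcl2a1b*, the effectors *Bax* and *Bak1*, and the BH3-only genes *Bcl2l11*, *Bid*, *Bad* and *Bbc3*. All 10 had counts in every column and passed the filter on low counts that left 16006 genes for testing.

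The cells came from OT-I:Rosa26-Cas9 mice on a C57BL/6J background, bred from Rag2/OT-I mice and mice that express Cas9 constitutively from the Rosa26 locus. Their transgenic receptor recognises a peptide of ovalbumin. CD8+ T cells from spleen and lymph nodes were activated in vitro with CD3/CD28 beads, expanded in IL-2, IL-7 and IL-15 and transduced with a lentiviral vector carrying a guide against *Elovl1* (sgElovl1) or a non-targeting guide (sgNT), and 3 days after transduction the CD90.1+ cells, which carried this vector, were collected by sorting. The groups were sgElovl1 of experiment 2, sgNT of experiment 2, sgElovl1 of experiment 1 and sgNT of experiment 1, with 2 samples each, and all of them shared Cas9, the activation, the cytokines and the vector. The mice were 6 to 10 weeks old by the study's account of T cell isolation. Guides against *Elovl1* are listed for the study's CROP-seq library, but the sources used here do not state which guide these samples carried, so none is printed. The design text of the series describes cells sorted from tumours, whereas its title, the sample labels and the study's methods describe these samples as in vitro cells, which is how they are treated here.

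The 8 labelled samples were deposited as 4 columns, each the sum of the 2 replicate mice of a group, so that the spread between mice was not analysed here. Total counts ranged between 49068952 and 63623476 per column, and 3 counts, the limit that a count of 0 allows for counting error, corresponded to 0.0474 to 0.0601 CPM, counts per 1000000 counts of the scaled library. *Elovl1*, the elongase of very long-chain fatty acids that the guide targets, served to test the labels against the data. It had 55.8 CPM in sgElovl1 cells against 93.5 CPM in sgNT cells of experiment 2, and 61.3 CPM in sgElovl1 cells against 110 CPM in sgNT cells of experiment 1, which gave a log2 fold change of -0.80 (SE 0.07). The 5 CD8 T cell markers *Cd3e*, *Cd3d*, *Cd8a*, *Cd8b1* and *Trac* lay between 421 and 1067 CPM in every column. The 23 markers of other cell types reached at most 1.79 CPM, 9 of them were at 0 in all columns (among them *Ms4a1*, *Siglech*, *Ncr1*, *S100a8*, *S100a9*, *Elane*, *Hbb-bs* and *Col3a1*), and their summed level was 5.14 and 5.45 CPM in experiment 2 (sgElovl1 and sgNT) and 3.34 and 3.44 CPM in experiment 1. Mitochondrially encoded genes took 14.3% (sgElovl1) and 10.2% (sgNT) of the counts in experiment 2, and 9.72% (sgElovl1) and 7.72% (sgNT) in experiment 1. Their part in the values below was not tested beyond repeats of the fit without them. The planned repeat also left out the 20 genes with the most counts. The other, chosen after seeing the data, left out the mitochondrial genes alone. In each repeat 0 members passed the threshold between the guides and 9 between the experiments, as in the fit with these genes. In bulk RNA, fewer cells with a transcript and less of it per cell cannot be told apart.

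As background, proteins of the Bcl2 family decide whether the outer membrane of the mitochondrion is opened in intrinsic apoptosis. BAX and BAK form the pores, the survival proteins BCL2, BCL-XL, MCL1 and A1 hold them in check, and BH3-only proteins either block the survival proteins or activate the effectors directly. In T cells, BCL2 and MCL1 are known for maintaining survival downstream of IL-7 and IL-15, and BIM, the product of *Bcl2l11*, for the loss of activated cells when cytokine and antigen are withdrawn. Many of these proteins are also controlled after translation, by phosphorylation, cleavage and degradation, which RNA counts do not show.

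The start regions of 3 members are printed because these 3 had the largest changes between the experiments among the members that passed the threshold, *Bbc3* and *Bcl2l11* upwards and *Bid* downwards. Each sequence is the 250 bases ahead of an annotated RefSeq transcript start in GRCm38.p6, on the strand of the gene, and is shown with the window of *Bbc3* and of *Bcl2l11* that holds a FOXO motif. Capitals mark a FOXO motif (GTAAACA) or a GC box (GGGCGG), searched on both strands. The *Bbc3* region is chr7:16310011-16310260 (plus strand), the *Bcl2l11* region is chr2:128125788-128126037 (plus strand) and the *Bid* region is chr6:120916825-120917074 (minus strand).
Bbc3: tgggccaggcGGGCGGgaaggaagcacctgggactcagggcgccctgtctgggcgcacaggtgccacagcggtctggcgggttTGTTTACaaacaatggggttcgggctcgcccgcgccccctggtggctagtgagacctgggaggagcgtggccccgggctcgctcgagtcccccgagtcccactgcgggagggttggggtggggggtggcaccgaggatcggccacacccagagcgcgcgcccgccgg
Bcl2l11: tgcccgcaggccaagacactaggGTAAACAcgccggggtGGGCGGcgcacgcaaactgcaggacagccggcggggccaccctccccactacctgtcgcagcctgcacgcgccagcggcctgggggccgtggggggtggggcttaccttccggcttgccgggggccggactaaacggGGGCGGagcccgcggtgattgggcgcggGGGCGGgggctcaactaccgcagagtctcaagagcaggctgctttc
Bid: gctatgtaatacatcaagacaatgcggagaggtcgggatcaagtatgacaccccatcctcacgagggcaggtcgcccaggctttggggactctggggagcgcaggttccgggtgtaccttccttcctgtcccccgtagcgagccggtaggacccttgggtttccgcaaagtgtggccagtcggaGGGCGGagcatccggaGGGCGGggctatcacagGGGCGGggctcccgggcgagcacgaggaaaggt

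The FOXO motif occurred in 3.17% of 32851 windows of this length ahead of all annotated starts, and among the 10 members, which have 16 windows, it occurred in 1 window each of *Bbc3* and *Bcl2l11*. FOXO proteins are transcription factors held out of the nucleus by growth factor and cytokine signalling through AKT, and both genes are textbook FOXO3 targets. The GC box, the motif of SP1, was found in 11 of the members' 16 windows, in every member but *Bcl2l1* and *Bak1*, against 32.7% of all windows, and the regions of *Bbc3*, *Bcl2l11* and *Bid* had a GC content of 72.4%, 72.0% and 63.6%, against a median of 52.4% over all windows. The E-box CACGTG was found in windows of *Bax* and *Bbc3* (6.02% of all windows), the p53 decamer in *Bax* (7.13% of all windows) and the STAT motif TTCNNNGAA in none of the members' windows (7.02% of all windows). Matches of different motifs were counted separately and may overlap. A match is a description of these letters, and no match says only that the letters are not in these windows.

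For 9 of the 10 members, the RNA level in sgElovl1 cells was close to that in sgNT cells. *Bcl2a1b*, at low counts, had a 95% interval of -0.72 to 0.69 on the log2 scale, too wide to show this. None of the 10 members passed the edgeR threshold of an adjusted p below 0.05 in sgElovl1 against sgNT cells, where 1.2% of all genes tested did (0.762% upwards and 0.437% downwards), and none had an unadjusted p below 0.05, where 10.6% of all genes did. DESeq2 and limma-voom also called no member. Over all genes, 122 were called upwards and 70 downwards, a split that became 132 to 44 with DESeq2 size factors and 151 to 42 without the mitochondrial genes, with or without the 20 most counted genes left out as well. The median log2 fold change of the members was -0.03, and that of all genes was -0.01. For the 9 members other than *Bcl2a1b*, the fold changes ran between -0.12 (*Bak1*) and 0.05 (*Bax*), and every bound of their 95% intervals lay between -0.29 and 0.19 on the log2 scale. The sgElovl1 and sgNT columns overlapped for all 10 members, and over all genes 12.6% did not overlap. With only 10 members, none at shares of 1.2%, 10.6% and 12.6% is near what these shares give. These counts do not set the members apart from all genes. The intervals rest on the spread pooled over all genes, with 4 columns and 1 residual degree of freedom. Their width differs between members, and for each member a change inside its own interval is not excluded.

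The larger difference lay between the experiments. In experiment 2 against experiment 1, 9 of the 10 members passed the threshold, *Mcl1*, *Bcl2l11*, *Bad* and *Bbc3* upwards and *Bcl2*, *Bcl2l1*, *Bax*, *Bak1* and *Bid* downwards, and their columns did not overlap between the experiments. Of all genes tested, 55.6% passed that threshold (26.4% upwards and 29.2% downwards), and 75.8% did not overlap, so that a high count of members stands against a high background. In the fit limited to a mean of at least 5 CPM, which left out *Bcl2a1b*, 7072 of 9757 genes passed. The labels distinguish the experiments by number alone, and culture, mice and sequencing cannot be told apart in this comparison. It sets 1 experiment against 1 other, with the sgElovl1 and sgNT columns of each as its only columns. The standard errors and adjusted p-values of this comparison therefore do not measure how far repeated experiments would differ. Of both comparisons it was the one in which members passed the threshold, and their values are given by role below, each with its sgElovl1 and sgNT columns.

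**Figure D1:**
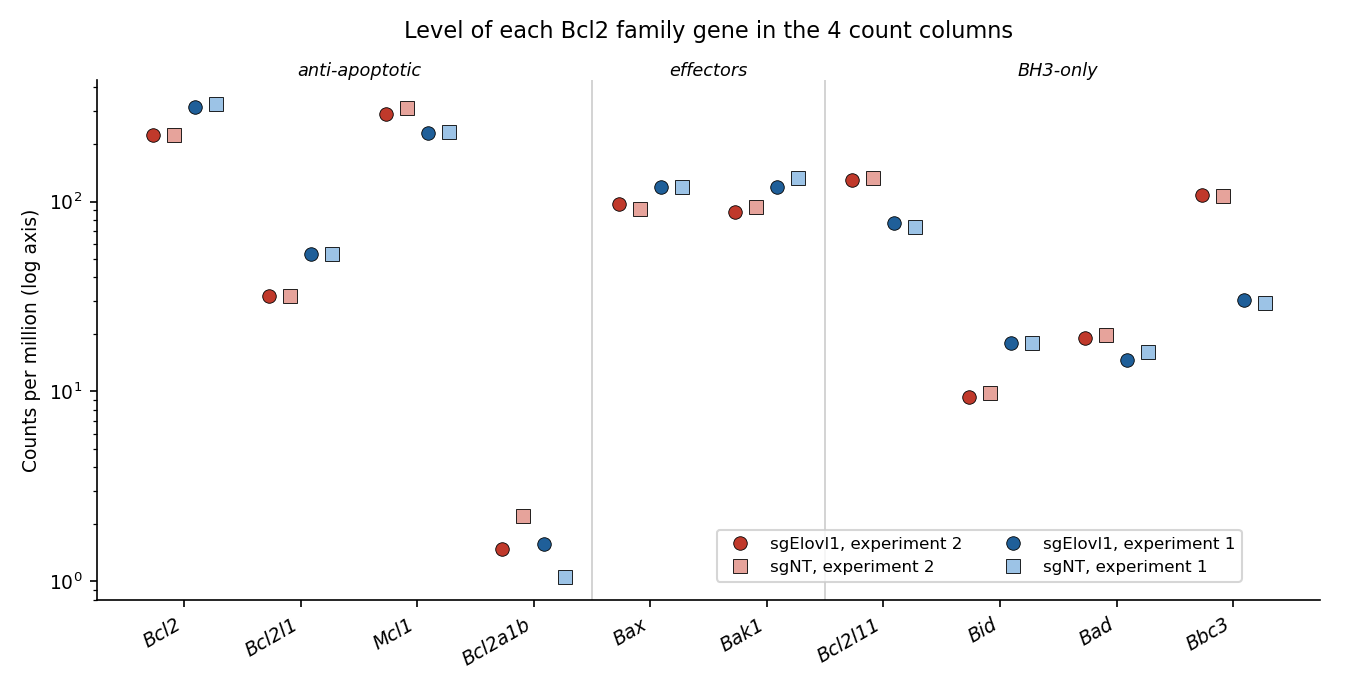
CPM (log axis) of each member in the 4 columns, with sgElovl1 as circles and sgNT as squares, experiment 2 in red tones and experiment 1 in blue tones, each point the sum of 2 mice. The red and the blue points part for 9 members, most for *Bbc3* (108 and 107 CPM in experiment 2, against 30.4 and 29.2 CPM in experiment 1), whereas the circle and the square of an experiment lie close together for every member but *Bcl2a1b*.

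Among the survival genes, *Bcl2*, the founding member that restrains BAX and BAK at the mitochondrion, had 224 CPM in sgElovl1 and 225 CPM in sgNT cells of experiment 2, and 314 CPM in sgElovl1 and 328 CPM in sgNT cells of experiment 1. The guides differed by a log2 fold change of -0.03 (SE 0.06, 95% interval -0.16 to 0.09, adjusted p = 0.930). Both columns of experiment 2 were below both of experiment 1, and *Bcl2* fell by 0.52 (SE 0.06) on the log2 scale, to 0.699 of its level in experiment 1.

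*Bcl2l1*, which encodes BCL-XL, a survival protein induced on T cell activation, had 31.7 CPM in sgElovl1 and 31.7 CPM in sgNT cells of experiment 2, and 53.02 CPM in sgElovl1 and 52.7 CPM in sgNT cells of experiment 1. Here the guides were nearly level within each experiment, with a log2 fold change of 0.00 (SE 0.07, 95% interval -0.14 to 0.15, adjusted p = 0.993). Between the experiments *Bcl2l1* fell by 0.74 (SE 0.07) on the log2 scale, a fold change of 0.5997 and the strongest decrease among the survival genes.

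*Mcl1*, a short-lived survival protein that lymphocytes depend on, went the other way. It had 289 CPM in sgElovl1 and 310 CPM in sgNT cells of experiment 2, and 229 CPM in sgElovl1 and 232 CPM in sgNT cells of experiment 1. Against sgNT, the log2 fold change in sgElovl1 cells was -0.06 (SE 0.06, 95% interval -0.19 to 0.06, adjusted p = 0.832). Both columns of experiment 2 were above both of experiment 1, with a rise of 0.38 (SE 0.06) on the log2 scale, or 1.30-fold.

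*Bcl2a1b* belongs to the A1 genes, NF-kB-induced survival genes that the mouse carries in several near-identical copies. It was by far the lowest member, with 82 counts in sgElovl1 and 111 counts in sgNT cells of experiment 2, and 83 counts in sgElovl1 and 67 counts in sgNT cells of experiment 1 (1.48, 2.22, 1.58 and 1.06 CPM in the same order). The order of the guides differed between the experiments, with a log2 ratio of sgElovl1 to sgNT of -0.59 in experiment 2 and 0.58 in experiment 1, each from 1 column against 1. The pooled log2 fold change of -0.02 therefore has a wide interval of -0.72 to 0.69 (SE 0.36, adjusted p = 0.992). *Bcl2a1b* was also the only member that did not pass between the experiments (log2 fold change 0.49, SE 0.36, adjusted p = 0.256), and its columns overlapped. Without the sgElovl1 column of experiment 1 it passed (0.80, adjusted p = 0.0325).

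The copies are shown because their similarity limits how far this row can be read as *Bcl2a1b* alone. These are the first 60 of 516 coding bases in the GRCm38 annotation, with capitals at the positions where the 3 copies differ, 6 of the 12 such positions in the whole coding sequence.
Bcl2a1a: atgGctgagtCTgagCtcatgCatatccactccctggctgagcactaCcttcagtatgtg
Bcl2a1b: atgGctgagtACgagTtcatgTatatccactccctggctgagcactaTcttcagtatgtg
Bcl2a1d: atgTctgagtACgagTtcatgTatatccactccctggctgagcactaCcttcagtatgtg

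The coding sequence of *Bcl2a1b* differed from that of *Bcl2a1d* at 6 bases (98.84% identity) and from that of *Bcl2a1a* at 11 bases (97.87% identity). Of its 668 transcript windows of 150 bases, the read length, 14.22% were also found in *Bcl2a1d* and 10.18% in *Bcl2a1a*. *Bcl2a1a* had 0 counts in every column, which allows up to 0.0474 to 0.0601 CPM for counting error alone. How reads that fit several copies were treated is not stated. This limit, and the levels of the other copies, therefore do not cover reads that may have been lost for that reason. *Bcl2a1d* had 57 counts in sgElovl1 and 55 counts in sgNT cells of experiment 2, and 85 counts in sgElovl1 and 81 counts in sgNT cells of experiment 1. Summed over the 3 copies, the level was 2.51 CPM in sgElovl1 and 3.32 CPM in sgNT cells of experiment 2, and 3.19 CPM in sgElovl1 and 2.34 CPM in sgNT cells of experiment 1. The sum differed by a mean log2 ratio of 0.02 between the guides and of 0.08 between the experiments. Of the *Bcl2a1b* columns of experiment 2, that of sgNT cells was above and that of sgElovl1 cells below its counterpart in experiment 1.

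The effectors *Bax* and *Bak1*, whose products oligomerise into the pores of the outer membrane, were both lower in experiment 2. *Bax* had 97.3 CPM in sgElovl1 and 91.0 CPM in sgNT cells of experiment 2, and 119 CPM in sgElovl1 and 119 CPM in sgNT cells of experiment 1. It fell by 0.34 (SE 0.07) on the log2 scale between the experiments, to 0.791 of its level, and between the guides its log2 fold change was 0.05 (SE 0.07, 95% interval -0.08 to 0.18, adjusted p = 0.874).

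*Bak1* had 88.1 CPM in sgElovl1 and 93.3 CPM in sgNT cells of experiment 2, and 120 CPM in sgElovl1 and 133 CPM in sgNT cells of experiment 1. It was lower in sgElovl1 than in sgNT cells within both experiments and had the smallest p of the members between the guides (log2 fold change -0.12, SE 0.07, 95% interval -0.24 to 0.01, unadjusted p = 0.0720, adjusted p = 0.530), which did not pass the threshold. Between the experiments *Bak1* fell by 0.48 (SE 0.07) on the log2 scale, a fold change of 0.719.

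Among the BH3-only genes, *Bbc3*, *Bid* and *Bcl2l11* held the widest changes of all members between the experiments, whereas *Bad* had one of the smallest that passed. *Bbc3* encodes PUMA, a BH3-only protein induced by p53 and by FOXO3 on cytokine withdrawal. It had 5969 counts (108 CPM) in sgElovl1 and 5322 counts (107 CPM) in sgNT cells of experiment 2, and 1598 counts (30.4 CPM) in sgElovl1 and 1851 counts (29.2 CPM) in sgNT cells of experiment 1. *Bbc3* rose 3.596-fold (log2 fold change 1.85, SE 0.07), and 4.85% of the genes tested had a change at least as large in either direction. Between the guides its log2 fold change was 0.03 (SE 0.07, 95% interval -0.10 to 0.17, adjusted p = 0.935).

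*Bcl2l11* encodes BIM, which binds all survival proteins and can activate BAX and BAK. It had 130 CPM in sgElovl1 and 133 CPM in sgNT cells of experiment 2, and 77.3 CPM in sgElovl1 and 73.6 CPM in sgNT cells of experiment 1. *Bcl2l11* rose 1.75-fold (log2 fold change 0.80, SE 0.07), whereas between the guides its log2 fold change was 0.02 (SE 0.07, 95% interval -0.11 to 0.15, adjusted p = 0.967).

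*Bid*, whose product is cleaved by caspase-8 and so links death receptors to the mitochondrion, was the member with the strongest decrease. It had 517 counts (9.33 CPM) in sgElovl1 and 489 counts (9.79 CPM) in sgNT cells of experiment 2, and 942 counts (17.9 CPM) in sgElovl1 and 1134 counts (17.9 CPM) in sgNT cells of experiment 1. The decrease of 0.91 (SE 0.11) on the log2 scale left 0.534 of the level of experiment 1, while the guides differed by -0.03 (SE 0.11, 95% interval -0.25 to 0.19, adjusted p = 0.966).

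*Bad* encodes a BH3-only protein that is inactive when phosphorylated by kinases such as AKT. It had 19.1 CPM in sgElovl1 and 19.9 CPM in sgNT cells of experiment 2, and 14.7 CPM in sgElovl1 and 16.1 CPM in sgNT cells of experiment 1. *Bad* rose 1.26-fold between the experiments (log2 fold change 0.34, SE 0.10, adjusted p = 0.00158), the weakest of the 9 calls and one that did not hold without the sgNT column of experiment 2 (0.32, adjusted p = 0.0754). Between the guides its log2 fold change was -0.10 (SE 0.10, 95% interval -0.29 to 0.10, adjusted p = 0.827).

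The change between the experiments had the same direction in sgElovl1 and in sgNT cells for all 9 members that passed. Taken separately in the sgElovl1 and the sgNT columns, the log2 ratio of experiment 2 to experiment 1 was 1.83 and 1.87 for *Bbc3*, 0.75 and 0.86 for *Bcl2l11* and -0.94 and -0.87 for *Bid*. These ratios differed between the guides by 0.01 (*Bcl2l1*) to 0.10 (*Bcl2l11*), and with 1 column per guide and experiment the difference was not tested. The size of the changes was near that of the transcriptome, since the median of the absolute log2 fold changes was 0.50 over the members and 0.47 over all genes. Between the guides, the same medians were 0.03 over the members and 0.12 over all genes. All genes include many of low counts, whose fold changes have wider standard errors than those of most members. The medians were not matched for level, so their gap between the guides does not show that the members were less affected than other genes.

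**Figure D2:**
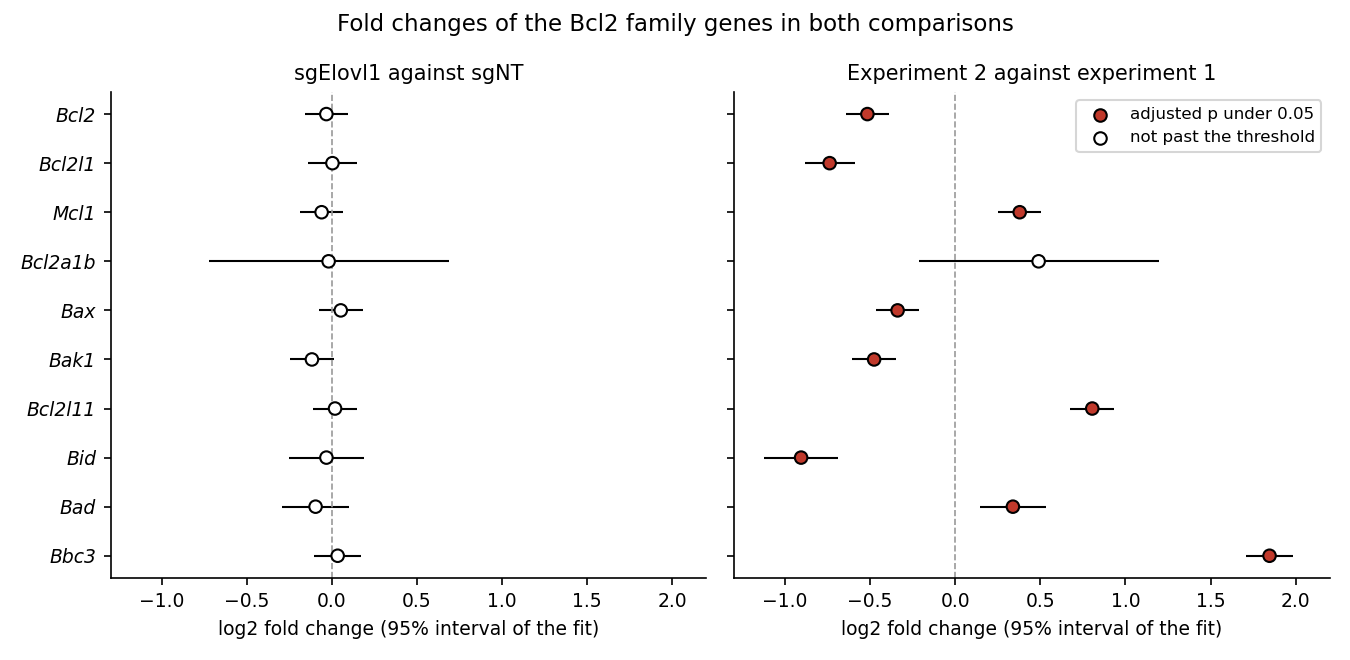
Log2 fold changes of the 10 members in sgElovl1 against sgNT cells (left) and in experiment 2 against experiment 1 (right), with 95% intervals of the edgeR fit as horizontal lines and filled points for an adjusted p below 0.05. All 10 intervals hold 0 on the left, whereas 9 points are filled on the right, 4 of them above 0 and 5 below.

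Survival and death genes were also set against each other within a column, where the scaling of the libraries drops out. The ratio of *Bcl2* to *Bcl2l11* was 1.72 in sgElovl1 and 1.69 in sgNT cells of experiment 2, and 4.06 in sgElovl1 and 4.46 in sgNT cells of experiment 1. *Mcl1* to *Bbc3* was 2.68 in sgElovl1 and 2.91 in sgNT cells of experiment 2, and 7.54 in sgElovl1 and 7.93 in sgNT cells of experiment 1. *Bcl2l1* to *Bax* was 0.325 in sgElovl1 and 0.349 in sgNT cells of experiment 2, and 0.444 in both sgElovl1 and sgNT cells of experiment 1. These 3 ratios and that of *Bcl2* to *Bad* were lower in both columns of experiment 2, with mean log2 differences of -1.32, -1.47, -0.40 and -0.86. That of *Bcl2a1b* to *Bid* was higher there, by 1.39, and rests on the low counts of *Bcl2a1b*. These pairs are a choice among the possible ones, and other pairs moved upwards. Between the experiments *Mcl1* rose by 0.38 on the log2 scale, while *Bax* (-0.34), *Bak1* (-0.48) and *Bid* (-0.91) fell. The ratios of *Mcl1* to these genes were therefore higher in experiment 2, and no general shift of survival against death genes can be read from the chosen pairs. Between the guides, the largest difference of a ratio without *Bcl2a1b* within an experiment was -0.13 on the log2 scale (*Bcl2* to *Bcl2l11* in experiment 1). A ratio of CPM includes the lengths of both genes, so only its change between columns can be read.

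**Figure D3:**
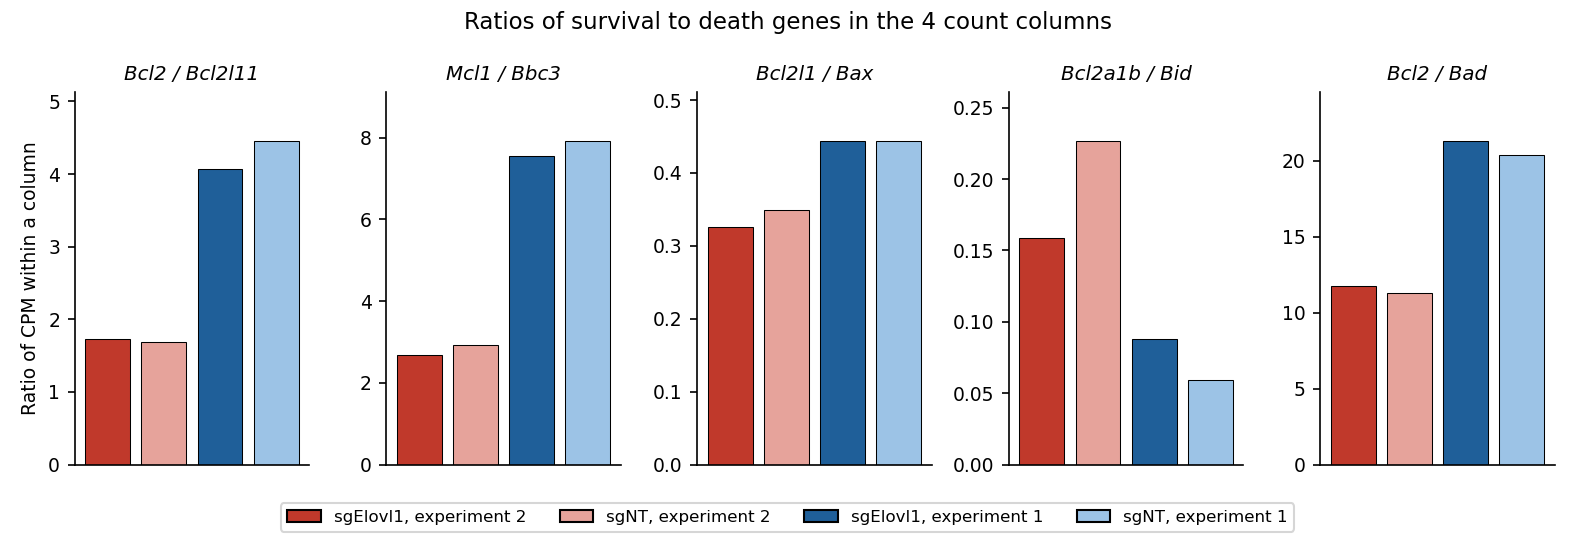
Ratio of the CPM of a survival gene to that of a death gene within each of the 4 columns (bars from 0, 1 bar per column, no error since each is a single column), for 5 pairs. The sgElovl1 and sgNT bars of an experiment are close for every pair but *Bcl2a1b* to *Bid*, and the bars of experiment 2 are the lower ones for the other 4 pairs.

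Levels were compared between genes only per length of annotated exon (GRCm38 models), with counts that included introns. Averaged over the 4 columns, *Mcl1* was highest at 77.5 CPM per kb, followed by *Bax* at 67.7, *Bak1* at 45.1, *Bbc3* at 32.2, *Bcl2* at 29.8, *Bcl2l11* at 12.9, *Bcl2l1* at 9.22, *Bad* at 6.82, *Bid* at 3.87 and *Bcl2a1b* at 1.94 CPM per kb. The order was not the same in both experiments. *Bbc3* was the third at 50.4 CPM per kb in experiment 2 and the fifth at 14.0 CPM per kb in experiment 1, where *Bcl2* stood above it (24.5 CPM per kb in experiment 2 and 35.1 CPM per kb in experiment 1). *Bax* stood below *Mcl1* in experiment 2 (59.8 against 87.7 CPM per kb) and above it in experiment 1 (75.5 against 67.4 CPM per kb). With the length of the longest coding transcript in place of all exons, *Bax* and *Mcl1*, and also *Bcl2* and *Bbc3*, changed places in the mean order, so these neighbours cannot be ranked. The counts included introns and the lengths did not, so intron reads raise each level by an amount not known here. The rest of the order is therefore approximate as well.

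**Figure D4:**
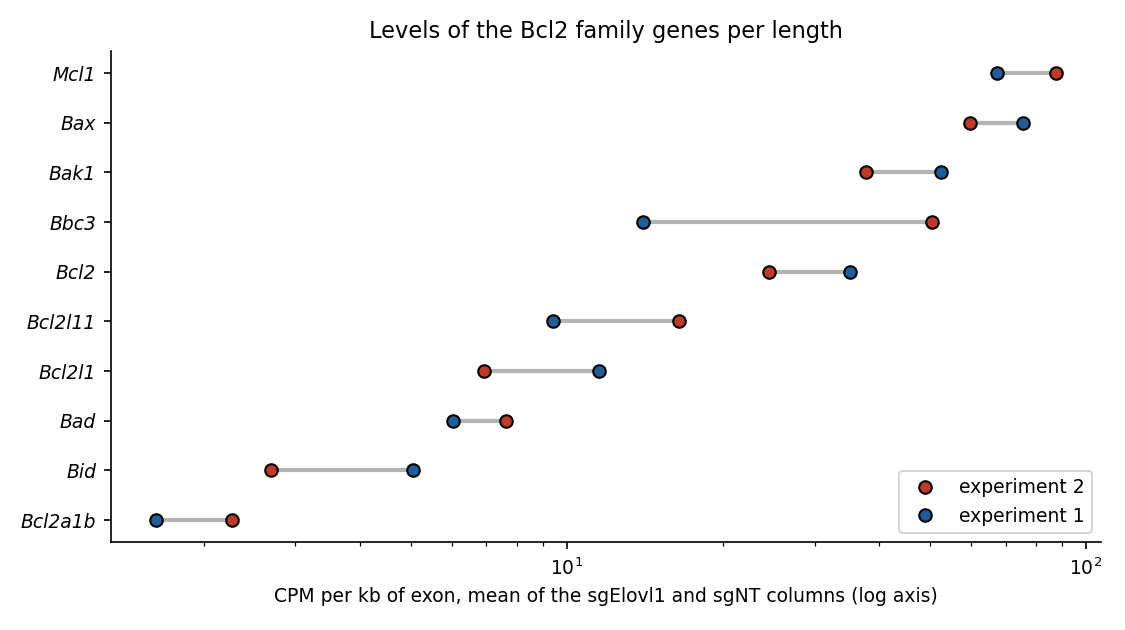
Mean CPM per kb of exon of each member (log axis) in experiment 2 (red) and experiment 1 (blue), each point the mean of the sgElovl1 and the sgNT column, ordered by the mean of all 4 columns. The line of *Bbc3* is the longest (50.4 in experiment 2 and 14.0 in experiment 1) and crosses the levels of *Bcl2*.

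The 78 other genes of the pathway were grouped in 12 lists by role. None of the 72 that were tested passed the threshold between the guides (median log2 fold change -0.02), where 1.2% of all genes did. Of the 72, 6 had an unadjusted p below 0.05, where 10.6% of all genes did, so these 6 do not set the pathway apart. The lowest adjusted p was 0.173, for *Xiap*. Of the 6 that were not tested, 4 had no counts in any column (*Bcl2l10*, *Bcl2a1a*, *Bcl2a1c* and *Hrk*), and *Bok*, the only other effector, and *Eda2r* were below the filter. Between the experiments 54 of the 72 passed (75.0%), 18 upwards and 36 downwards, against 55.6% of all genes. Most of these pathway genes had a mean above 5 CPM, and in the fit limited to at least that mean, 7072 of 9757 genes passed. These shares come from different fits and sets of genes, so whether 75.0% sets the pathway apart from genes of such levels was not tested. The list medians and counts below are descriptions without a test.

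In the guide comparison, the gene with the smallest p of a list illustrates the size of the differences. *Xiap*, the caspase inhibitor, differed by a log2 fold change of -0.21 (SE 0.07). *Cflar*, which blocks caspase-8, had -0.13, and *Huwe1*, the ubiquitin ligase of MCL1, 0.13. None of these 3 passed the threshold. In other lists, the smallest p belonged to *Bcl2l2* (-0.19), *Pmaip1* (-0.13), *Bcl2l15* (-0.56, at a mean of 0.375 CPM), *Vdac2* (-0.10), *Stat5b* (-0.12), *Il7r* (0.13) and *Cdkn1a* (-0.09), with unadjusted p-values between 0.0797 and 0.444.

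After the mitochondrial step, the apoptosome and caspase genes were mostly lower in experiment 2 than in experiment 1. Of 8 genes of the apoptosome and the caspases, 7 fell and 1 rose, among them *Cycs*, which encodes the cytochrome c that leaves the mitochondrion, with 50.7 CPM on average in experiment 2 against 112 CPM in experiment 1 (log2 fold change -1.13). All 3 channels of the outer membrane fell, including *Vdac3* (-0.999) and *Vdac1* (-0.84). Of 8 caspase inhibitors and released factors, 3 fell, with *Endog* at -1.09, and 1 rose, *Birc2* at 0.73.

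Among the other relatives of the family, *Bmf*, a BH3-only gene, rose to 14.5 CPM in experiment 2 against 7.504 CPM in experiment 1 (log2 fold change 0.95), and *Pmaip1*, which encodes the MCL1-binding NOXA, fell by 0.54 on the log2 scale, while 1 further BH3-only gene did not pass. Of 7 Bcl2-like genes, 1 rose and 3 fell, and *Bnip3*, a hypoxia-induced gene of mitophagy, had the largest decrease of the pathway, to 29.2 CPM in experiment 2 against 164 CPM in experiment 1 (log2 fold change -2.49). Its relative *Bnip3l* had a log2 fold change of -0.67. Neither of the 2 other survival genes tested, *Bcl2l2* and *Bcl2a1d*, passed the threshold.

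Upstream of the members, 6 of 9 transcription factors rose and 2 fell, with *Ddit3*, the stress factor CHOP, at a log2 fold change of 0.81 and *Foxo3* at 0.59 (47.1 CPM in experiment 2 against 31.2 CPM in experiment 1). The list of p53 targets is partial and leaves out those placed under another role, such as *Bbc3*. Of its 7 genes tested, 1 rose and 4 fell. The largest decreases were those of *Cdkn1a*, the cell cycle inhibitor p21, and *Ccng1* (-0.91). *Cdkn1a* had 23.0 CPM in experiment 2 against 82.6 CPM in experiment 1 (log2 fold change -1.84). *Bbc3*, itself a p53 target, moved with the 1 that rose and opposite to the 4 that fell. A part of p53 or of FOXO3 in its change was not tested. Of 5 cytokine receptor genes, 2 rose and 2 fell, with *Il7r*, which delivers the survival signal of IL-7, at 0.96 and *Il2ra*, the activation-induced IL-2 receptor chain, at -0.76. In the death receptor arm, 3 of 9 rose and 2 fell, with *Fasl* at -0.69 and the adaptor *Fadd* at -0.78. Of 11 regulators that act on the proteins, 2 rose and 9 fell, among them *Dynll1* (-0.86), the dynein light chain that binds BIM, and *Ywhae* (-0.82), a 14-3-3 protein of the kind that holds phosphorylated BAD.

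**Figure D5:**
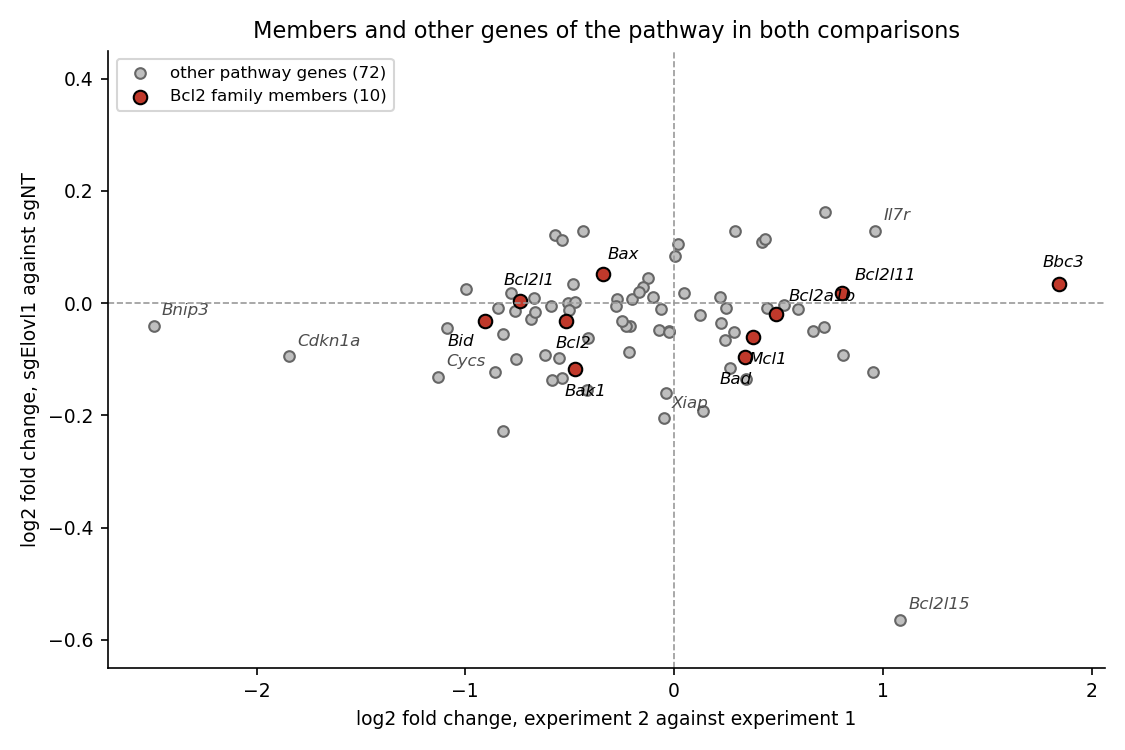
Log2 fold change in sgElovl1 against sgNT cells (vertical axis) and in experiment 2 against experiment 1 (horizontal axis) for the 10 members (red) and the 72 other pathway genes tested (grey), 1 point per gene. The points spread far along the horizontal axis, between -2.49 (*Bnip3*) and 1.85 (*Bbc3*), and little along the vertical axis, where *Bcl2l15* at -0.56 is a gene of very low counts.

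The profile of a member over the 4 columns was compared with the profiles of genes of at least 20 CPM, by the root mean square difference of centred log2 CPM. The closest of 6825 genes to *Bbc3* were *Ifi27l2a* (0.028), *Gm28417* (0.049) and *Thap3* (0.074). *Ifi27l2a*, an interferon-induced gene, had 320.1 CPM in sgElovl1 and 312 CPM in sgNT cells of experiment 2, and 89.8 CPM in sgElovl1 and 82.6 CPM in sgNT cells of experiment 1. The closest to *Bcl2a1b* were less alike, *BE692007* (0.17), *Kremen1* (0.20) and *Trim5* (0.21), at the low counts of that member. For *Bcl2l11*, which was added after its values were seen, they were *S1pr4* (0.011), *Mef2d* (0.017) and *Srrm2* (0.020). With 4 columns that differ mainly by experiment, likeness here means a similar step between the experiments.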

How the data were processed

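RNA of CD90.1+ OT-I T cells was sequenced from strand-specific mRNA libraries (8 samples). According to the methods of the study and to the submitters' processing notes, the authors aligned reads with STAR 2.7.10b to GRCm39, counted them per gene, introns included, with featureCounts 2.0.1 in R 4.3.3 in the reverse-stranded mode, and summed replicate mice within each experiment. The deposited values were these raw counts, with no normalization, in 4 columns of 56805 symbols (32132 at 0 throughout). No source used here states how reads with several alignments were treated. The authors tested genes with DESeq2 1.42.0.

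The design had assumed 8 libraries. The same tests were run on 4 columns. Genes were filtered with filterByExpr (16006 kept), scaled by TMM and fitted in edgeR 4.0.16 (R 4.3.3) on experiment and guide, with a quasi-likelihood F test for each and Benjamini-Hochberg adjustment over all genes tested (threshold 0.05). The 1 residual degree of freedom and an infinite prior made p-values, standard errors (SE) and 95% intervals rest on the trend over all genes (biological coefficient of variation 6.98%), so they measure the spread between columns and not between mice. The effect of sgElovl1 could not be tested for a difference between the experiments. CPM are counts scaled after TMM. Totals of 49068952 to 63623476 counts set the precision, and the 3-count limit covers counting error only. Scripts were tested on simulated data.

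Alternatives were DESeq2 size factors, no filter, a mean of at least 5 CPM, both DESeq2 tests (Wald and likelihood ratio), limma-voom (limma 3.58.1), no term for the other factor, removal of mitochondrial genes and of the 20 genes with the most counts, each column left out in turn, summed *Bcl2a1* rows and, chosen after seeing the data, removal of the mitochondrial genes alone. Sequences, exon lengths and motifs came from RefSeq and GENCODE models of GRCm38, not the build of the counts, so no coordinate was joined to a count. All 10 members matched by symbol.

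The members and gene lists were chosen with earlier results of these data known. Genes named were all members, *Elovl1*, the *Bcl2a1* copies, in each list those past the threshold between the guides or otherwise the 1 gene with the smallest p, up to 2 per list with the smallest adjusted p between the experiments, and the 3 genes most like the 2 members of widest range. Some genes that this rule takes are not reported here.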

Additional observations from a re-analysis of the deposited data

Results flagged for a closer look

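In 3 members the sgElovl1 to sgNT ratio had opposite signs in the experiments, a difference that was not tested because each experiment has 1 column per guide. For *Bcl2a1b* the log2 ratio was -0.59 in experiment 2 and 0.58 in experiment 1, a difference of -1.16 at 67 to 111 counts per column. For *Bcl2l11* it was -0.03 in experiment 2 and 0.07 in experiment 1 (difference -0.10), and for *Bcl2l1* it was -0.0020 in experiment 2 and 0.0080 in experiment 1 (difference -0.010).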

How the results depend on the processing

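No member passed the threshold between the guides under any alternative run, and between the experiments 9 members passed under each alternative that kept all columns. With 1 column left out, 8 to 10 passed between the experiments (8 without sgNT of experiment 2, where *Bad* was lost, and 10 without sgElovl1 of experiment 1, where *Bcl2a1b* was added). The number of all genes past the threshold between the guides, 192, was 94 without a filter, 35 at a mean of at least 5 CPM, 26 with the Wald test and 26 with the likelihood-ratio test of DESeq2, 0 without the experiment term (19 at an unadjusted p below 0.05) and 0 to 6 with 1 column left out. Of the calls between the guides, 122 were upwards and 70 downwards, against 132 and 44 with DESeq2 size factors and 151 and 42 without the mitochondrial genes, alone or with the 20 most counted genes.

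Between the experiments no member changed direction under any alternative. Between the guides, where no member was called, the sign changed for *Bcl2l1* without a filter (-0.0028) and for *Bcl2a1b* with both tests of DESeq2 (0.0022, adjusted p not given by DESeq2) and without the mitochondrial and most counted genes (0.0033) or without the mitochondrial genes alone (0.0036, an alternative chosen after seeing the data). With 1 column left out and no experiment term, which then mixes guide with experiment, the log2 fold change ranged between -0.27 and 0.095 for *Bad*, -0.36 and 0.15 for *Bak1*, -0.11 and 0.25 for *Bax*, -1.14 and 1.27 for *Bbc3*, -0.30 and 0.26 for *Bcl2*, -0.54 and 0.56 for *Bcl2a1b*, -0.41 and 0.41 for *Bcl2l1*, -0.40 and 0.52 for *Bcl2l11*, -0.57 and 0.47 for *Bid* and -0.26 and 0.19 for *Mcl1*. No paired analysis was possible because, for the mice, the columns sum the replicates and carry no replicate number. The experiment term of the reported fit does pair the sgElovl1 and the sgNT column within each experiment, and the 0 calls without that term, against 192 with it, are the comparison for that pairing. Depth limits *Bcl2a1b* most, since every other member had at least 489 counts in each column. *Bid* and *Bad*, the next lowest in counts, also had wider standard errors between the guides (0.11 and 0.10) than *Bcl2* and *Mcl1* (0.06 each).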
